A study of Mus musculus with 16 samples.

Results

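The 8 genes described here, *Irf4*, *Prdm1*, *Xbp1*, *Creb3l2*, *Ell2*, *Jchain*, *Sdc1* and *Mzb1*, belong to the program by which B cells become plasma cells. They were chosen by symbol from the 56691 genes of a single-cell count matrix, and each of the 8 symbols was found. The matrix holds 637 light zone (LZ) germinal center (GC) B cells from mouse lymph nodes, sorted 1 per well and sequenced by SMART-seq2, a full-length method without molecular identifiers. The labels list 16 samples: B1-8hi BTKC481S and B1-8hi BTKWT cells from each of 8 hosts, of which 5 (A7, A8, A10, A11, A12) were given acalabrutinib, an inhibitor of the kinase BTK, and 3 (V5, V7, V9) vehicle. In every host the sorted cells came from transferred B cells that carry the B1-8hi heavy chain, which binds the hapten NP, and the C481S change makes BTK insensitive to the drug. By the study's methods the hosts were male mice primed with ovalbumin and later boosted in the footpads with NP-OVA, and the labels give no age for single hosts. The names of the cells give host, plate and well but no genotype, so the host was the replicate, cells of both genotypes were pooled, and differences between genotypes were not analysed here.

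In GC B cells, BCL6, PAX5 and BACH2 hold back plasma cell differentiation. IRF4 and BLIMP-1, the product of *Prdm1*, oppose these repressors and start the program. XBP1, a transcription factor of the unfolded protein response, and CREB3L2 raise the capacity of the secretory pathway, and ELL2, a transcription elongation factor, favors the secreted form of the immunoglobulin heavy chain. *Jchain* encodes the chain that joins IgM and IgA into polymers, *Sdc1* the surface proteoglycan CD138 by which plasma cells are recognized, and *Mzb1* a chaperone of the endoplasmic reticulum that aids antibody assembly.

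Cells had between 132412 and 1825420 counts each, with a median of 789357. The sums per host lay between 26778559 and 114987280 counts over 45 to 130 cells. B cell markers were found in nearly all cells (*Cd74* in 100%, *Pax5* in 95.5%). GC markers were found in most, from 62.0% for *Fas* to 91.05% for *Mybl1*, with *Bcl6* in 86.5%. Of the LZ markers, *Cd83* was found in 85.9% of cells, *Cd86* in 63.6% and *Cd40* in 39.25%. The 8 genes of T cells had a count in 0.157% to 2.67% of cells. *Itgam* was at 0, while *Adgre1*, a macrophage gene, had a count in 38.2% of cells at 8.39 CPM, that is, counts scaled to a fixed total per library. The B cell gene *Ms4a1* had no count in any cell, and all its exonic bases lie within another gene on the opposite strand in GENCODE M21. The sorts came from 2 independent experiments, and the labels do not say which host belonged to which, so experiment and host cannot be told apart.

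The 250 bases before the transcription start are shown for 2 regulators and 2 products, since counts of *Irf4*, *Prdm1* and *Sdc1* met in the same cells more often than the shares of each gene gave, though no pair of the 3 passed 0.05, and *Jchain* was the most widely detected of the 8 genes. The sequences are from RefSeq, build GRCm38.p6, 5′ to 3′ on the strand of the gene. Capitals mark GAAAG, the core of sites bound by BLIMP-1, and ACGTG, the core of sites bound by XBP1, on either strand.
Irf4 (chr13:30748983-30749232, plus strand): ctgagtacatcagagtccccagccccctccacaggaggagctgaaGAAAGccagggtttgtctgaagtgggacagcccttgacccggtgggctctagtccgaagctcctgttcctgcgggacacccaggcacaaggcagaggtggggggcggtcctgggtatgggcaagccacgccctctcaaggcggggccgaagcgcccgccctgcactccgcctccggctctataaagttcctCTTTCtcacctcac
Prdm1 (chr10:44458749-44458998, minus strand): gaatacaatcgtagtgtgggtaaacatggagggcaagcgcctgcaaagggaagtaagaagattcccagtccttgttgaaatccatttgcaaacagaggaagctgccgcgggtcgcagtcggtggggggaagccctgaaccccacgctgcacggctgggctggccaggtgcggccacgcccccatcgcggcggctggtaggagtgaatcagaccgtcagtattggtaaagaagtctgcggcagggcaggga
Jchain (chr5:88527898-88528147, minus strand): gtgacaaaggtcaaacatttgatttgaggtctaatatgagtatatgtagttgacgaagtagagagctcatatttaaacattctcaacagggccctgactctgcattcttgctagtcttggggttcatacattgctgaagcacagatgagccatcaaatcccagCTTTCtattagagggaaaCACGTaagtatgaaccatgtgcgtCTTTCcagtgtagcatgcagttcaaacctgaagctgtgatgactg
Sdc1 (chr12:8771146-8771395, plus strand): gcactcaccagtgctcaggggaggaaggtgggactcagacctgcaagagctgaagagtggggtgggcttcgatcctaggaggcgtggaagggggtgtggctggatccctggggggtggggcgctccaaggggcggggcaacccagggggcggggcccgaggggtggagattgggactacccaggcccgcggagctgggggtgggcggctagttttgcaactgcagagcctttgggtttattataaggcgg
The *Irf4* stretch held GAAAG at 2 places and the *Jchain* stretch at 2 places, with ACGTG at 1 more, and neither motif was found before *Prdm1* or *Sdc1*. Of 32851 stretches of this length before mouse genes, 51.5% held GAAAG and 16.6% held ACGTG, so these matches describe the letters only.

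The 8 genes fell into widely and rarely detected ones. *Jchain* had a count in 581 of 637 cells (91.2%; exact 95% binomial interval 88.7% to 93.3%) and *Xbp1* in 357 (56.0%; 52.1% to 59.9%). *Ell2* was found in 197 cells (30.9%) and *Creb3l2* in 159 (24.96%). *Irf4* was found in 63 cells (9.89%; 7.68% to 12.5%), *Prdm1* in 40 (6.28%; 4.52% to 8.45%) and *Sdc1* in 15 (2.36%). *Mzb1* had 2 counts in 2 cells. All intervals treat the 637 cells as independent draws and leave out the spread between hosts, in which *Xbp1* ran from 31.5% to 67.3%. Amplified copies of 1 molecule can count more than once, so the counts within a cell are not numbers of molecules. In GENCODE M21, 99.9% of the exonic bases of *Mzb1* lie within SPATA24 on the same strand, and the part of this overlap in the near absence of *Mzb1* was not tested.

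A count did not mean the same in each gene. Of the 63 *Irf4*-positive cells, 54 held 10 counts or more, and the median was 147 counts. Of the 40 *Prdm1*-positive cells, 13 held a single count and 17 held 10 or more. The 5 cells with most *Prdm1* carried 65.9% of all its counts, and the 5 with most *Sdc1* carried 72.5%, against 3.20% for *Jchain*. *Creb3l2* was the extreme case, with a single count in 95 of its 159 cells and 10 counts or more in 38. Thinned to 459128 counts per cell, the share of *Creb3l2*-positive cells was 18.0%, while the shares of the other 7 genes moved by less than the standard deviation between hosts.

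Scaled to CPM of the host sums and divided by exonic length, *Jchain* was highest at 350 ± 35.1 CPM per kb (SD, n = 8 hosts), followed by *Xbp1* at 108 ± 24.9 and *Ell2* at 12.4 ± 3.34. Next came *Irf4* at 7.16 ± 5.35, *Prdm1* at 4.75 ± 5.28, *Creb3l2* at 3.06 ± 2.79 and *Sdc1* at 1.85 ± 2.15 CPM per kb. From *Ell2* downwards each gene differed from the next by less than the larger of their SDs. The counts include intronic reads, so division by exonic length is approximate.

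**Figure D1:**
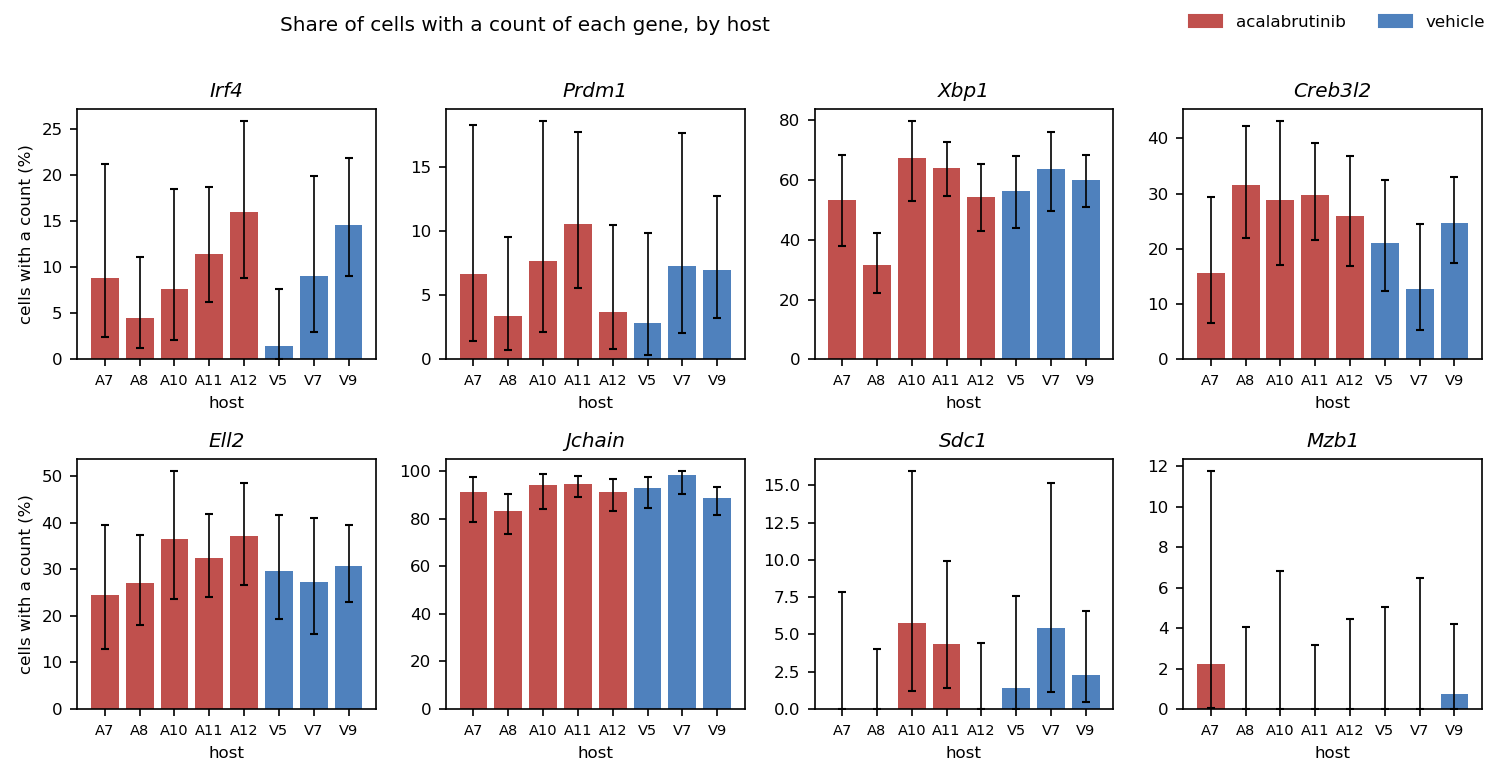
Percentage of cells with at least 1 count of each gene (y axis) in each of 8 hosts (x axis), red for acalabrutinib and blue for vehicle; error bars are exact 95% binomial intervals. *Jchain* lay between 83.2% and 98.2% in every host, *Sdc1* was at 0 in A7, A8 and A12, and host A8 was lowest for *Xbp1* and *Jchain*.

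Of the 2 most widely detected genes, *Jchain* was more even between hosts than *Xbp1*. *Jchain* was at 905, 708, 959, 887 and 838 CPM in acalabrutinib hosts A7, A8, A10, A11 and A12, and at 931, 985 and 828.8 CPM in vehicle hosts V5, V7 and V9. *Xbp1* was at 339, 177, 422, 441 and 376 CPM in the same acalabrutinib hosts and at 325, 363 and 376 CPM in the vehicle hosts. Host A8 was lowest for both genes, and the remaining hosts stood close together. In A8 *Xbp1* was found in 31.5% of 89 cells, against 53.3% to 67.3% of cells in the other 7 hosts.

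The rare genes varied far more. *Irf4* was at 10.6, 8.81, 74.3, 50.0 and 30.4 CPM in the acalabrutinib hosts and at 2.66, 44.2 and 59.6 CPM in the vehicle hosts. *Prdm1* was at 0.187, 0.0965, 58.4, 37.2 and 16.3 CPM, and at 2.51, 79.4 and 17.9 CPM. *Sdc1* was at 8.67 CPM in A10, 18.8 in A11, 1.42 in V5, 19.1 in V7 and 8.40 in V9, and had no count in the other 3 hosts. In CPM, hosts A10, A11, V7 and V9 were thus the 4 highest for each of these 3 genes. By share of cells, *Irf4* was highest in A12 (16.05%). A single cell held 91.3% of the *Prdm1* counts in A10, 45.35% in A11, 53.8% in V7 and 81.1% in V9. A count of 0 among the 45 cells of A7 allows a share of up to 6.67% of cells with a count, taken as 3 of 45, and the exact 95% binomial interval reaches 7.87%, so the absence of *Sdc1* there was not resolved at this number of cells.

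The comparison of acalabrutinib with vehicle hosts asked whether the drug moved these genes when both genotypes were pooled. The BTKC481S cells in each host are insensitive to the drug, so a change in BTKWT cells alone would appear weaker in these values. In share of cells and in CPM the 2 groups overlapped for each of the 8 genes, and such overlap was not counted over all genes. *Irf4*-positive cells made up 9.71% ± 4.33 of cells (SD, n = 5) with the drug, from 4.49% to 16.0%, and 8.37% with vehicle (n = 3), from 1.41% to 14.6% (exact two-sided permutation p = 0.73 over 56 splits, of which the smallest possible p is 0.018). *Creb3l2* differed most in share, at 26.3% against 19.5% of cells (exact p = 0.21). By edgeR's quasi-likelihood test on host sums, 0 of the 7 genes tested passed an adjusted p of 0.05, and neither did any of all 18016 genes (0.0%). The log2 difference was -0.11 ± 0.16 (SE) for *Jchain*, -0.04 ± 0.24 for *Xbp1* and -0.64 ± 1.57 for *Prdm1*, with an adjusted p of 1.0 each. Without host V7 the *Prdm1* value was 1.15 on the same log2 scale. Of all genes, 616 had an unadjusted p below 0.05 in edgeR, while DESeq2 called 105 and limma on cell means 0. Of the fixed lists, 0 of 25 secretory and plasma cell genes and 0 of 19 B cell and GC identity genes tested passed either, with median log2 differences of 0.004 and 0.021 beside 0.022 over all genes. In such pooled values fewer cells with a transcript and less RNA per cell cannot be told apart.

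Most cells held few of the 8 genes. *Jchain* reached 10 counts in 569 cells and *Xbp1* in 336, and at that limit the 2 met in 316 cells against 302 expected within hosts. At 10 counts or more, 35 cells had none of the 8 genes, 185 had 1, 285 had 2 and 112 had 3. Only 9 cells had 4 of the genes and 11 cells (5 with 5, 2 with 6 and 4 with 7) had 5 or more. These 11 cells came from A10, A11, A12, V7 and V9, with 4 in A11, 2 each in A10, V7 and V9, and 1 in A12. They were chosen by their counts of the 8 genes, so the levels of those genes in them are a description. The number of genes per cell was not compared with an expected number.

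**Figure D2:**
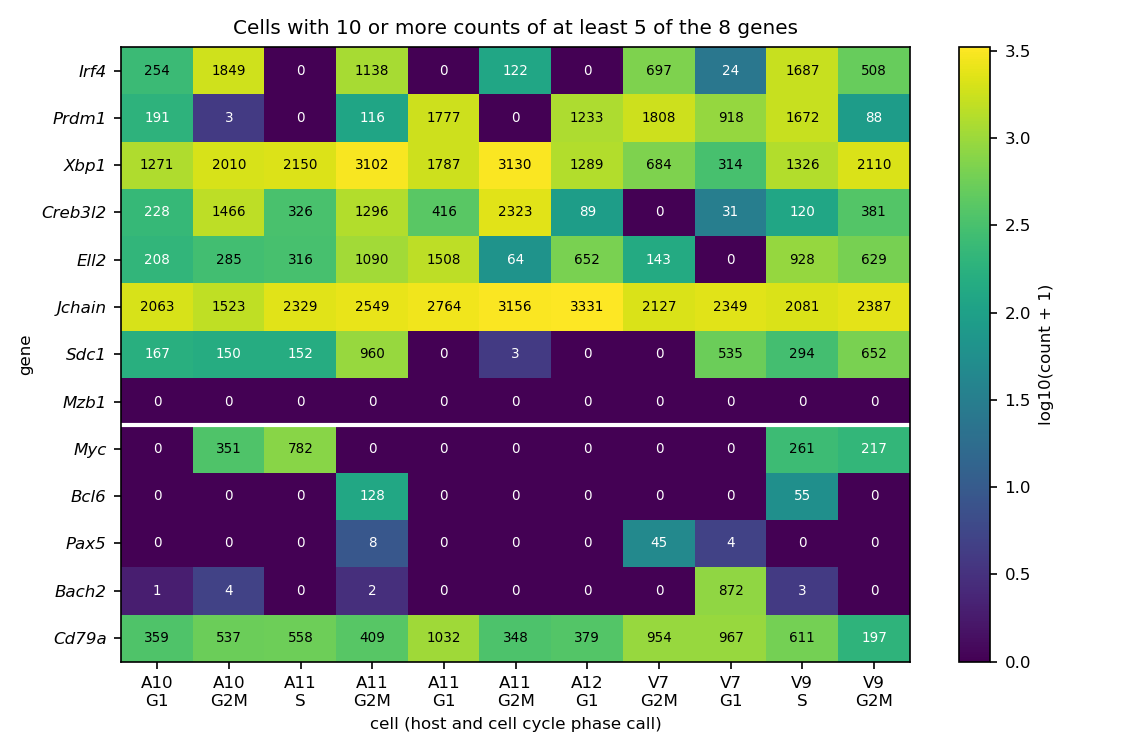
Counts of the 8 genes and of *Myc*, *Bcl6*, *Pax5*, *Bach2* and *Cd79a* (rows) in the 11 cells with 10 or more counts of at least 5 of the 8 genes (columns, named by host and cell cycle phase call); color is log10(count + 1) and each count is printed. *Xbp1* had 314 counts or more and *Jchain* 1523 or more in each cell, whereas *Pax5* was at 0 in 8 cells and at most 45.

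In the 11 cells *Jchain* reached 1523 to 3331 counts and *Xbp1* 314 to 3130, both in every cell. *Creb3l2* and *Ell2* had counts in 10 of 11 cells each. *Irf4* was present in 8 cells, *Prdm1* in 9 and *Sdc1* in 8, and *Mzb1* in none. The 3 cells without *Irf4* were not alike. One from A11 had 1777 *Prdm1* counts and one from A12 had 1233, with *Creb3l2* and *Ell2* but no *Sdc1*. The third, also from A11, had neither *Irf4* nor *Prdm1* but 2150 counts of *Xbp1*, 152 of *Sdc1* and 782 of *Myc*. The cell from A10 with most *Irf4* (1849 counts) held 3 counts of *Prdm1*, 1466 of *Creb3l2* and 351 of *Myc*.

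The transcripts of the GC repressors were nearly gone from these cells. *Pax5* was under 10 counts in 10 of 11 cells (90.9%), against 54 of all 637 cells (8.48%). *Bcl6* had a count in 2 of 11 cells (128 and 55 counts), against 87.7% of the other 421 cells of the same 5 hosts. *Bach2* exceeded 4 counts in 1 cell from V7, which held 872, and its mean was 112 CPM against 3010 CPM in the other cells. *Spib*, a B cell transcription factor, was found in 1 of 11 cells against 86.0%, and *Cd22*, an inhibitory co-receptor, in 3 of 11 against 87.4%. Others were found more often, *Ebf1* and *Mef2c* in 10 of 11 cells each and *Irf8* and *S1pr2* in 6 each. The genes from *Spib* on were named after their values were seen. Of 19 B cell and GC identity genes, 17 had a lower mean CPM in the 11 cells and 2 (*Foxp1* and *Myb*) a higher one, while 9831 of 15796 genes with a summed mean above 2 CPM were lower.

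Genes of secretion stood higher beside the 8. Of 28 secretory and plasma cell genes, 25 had a higher mean CPM in the 11 cells, 2 a lower one (*Zbtb20* and *Tnfrsf17*) and *Cav1* had no count. Of the 15796 genes, 37.8% had a higher mean CPM in them. *Pdia4*, a disulfide isomerase, was at 1375 CPM against 109 CPM and *Hsp90b1*, a chaperone, at 1310 against 253 CPM. *Tent5c*, a poly(A) polymerase, was at 701 against 22.2 CPM, and *Ern1*, which encodes the sensor IRE1 that splices *Xbp1* mRNA, at 350 against 29.9 CPM. *Bhlha15*, a factor of secretory cells, had counts in 5 of 11 cells against 0.475% of the others. These genes were named after their values were seen, and no test was made, since a host held at most 4 of the 11 cells. Total counts of the 11 cells ran from 377151 to 1527091. Doublets were not called, each well having received 1 cell by sorting.

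The 17 cells with 10 or more *Prdm1* counts were split at 10 counts of *Pax5*. In 8 of them, from 5 hosts, *Pax5* was under 10 counts, and *Irf4* was present in 6, *Sdc1* in 5 and *Creb3l2* in 7. *Jchain* ran from 1546 to 3331 counts there, with a median of 2368, and *Xbp1* from 314 to 3102. In the other 9 cells, also from 5 hosts, *Pax5* ran from 45 to 2907 counts, *Irf4* was present in 2 cells and *Sdc1* in none. The V7 cell with 45 counts of *Pax5* was also among the 11 above, with 697 counts of *Irf4*, 2127 of *Jchain* and 0 of *Bach2*. *Jchain* had a median of 676 counts in those 9 cells, *Xbp1* of 130, and *Bach2* of 2750 against 0.5 in the first 8. *Prdm1* itself ran from 88 to 1777 counts in the first set and from 39 to 2053 in the second, so the ranges overlapped. This split was chosen after the values were seen.

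*Sdc1*-positive cells were also set beside the 11 cells above. Of the 15 cells, 8 were among the 11. *Irf4*, *Prdm1* and *Sdc1* count toward the choice of the 11, so the contrast in these genes is partly built in by the rule. The other 7 had no count of *Irf4* or *Prdm1*, between 1 and 479 counts of *Sdc1*, and 40 to 2236 counts of *Pax5*. In 6 of these 7 *Xbp1* had 464 to 1165 counts. The cell with 1165, from A11, had 1776 counts of *Jchain*, 384 of *Ell2*, 40 of *Pax5* and 2 of *Bach2*. It also held 527 counts of *Bcl6* and 0 of *Creb3l2*. The share of *Sdc1*-positive cells (2.36%) lay within the range of the T cell genes given above.

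**Figure D3:**
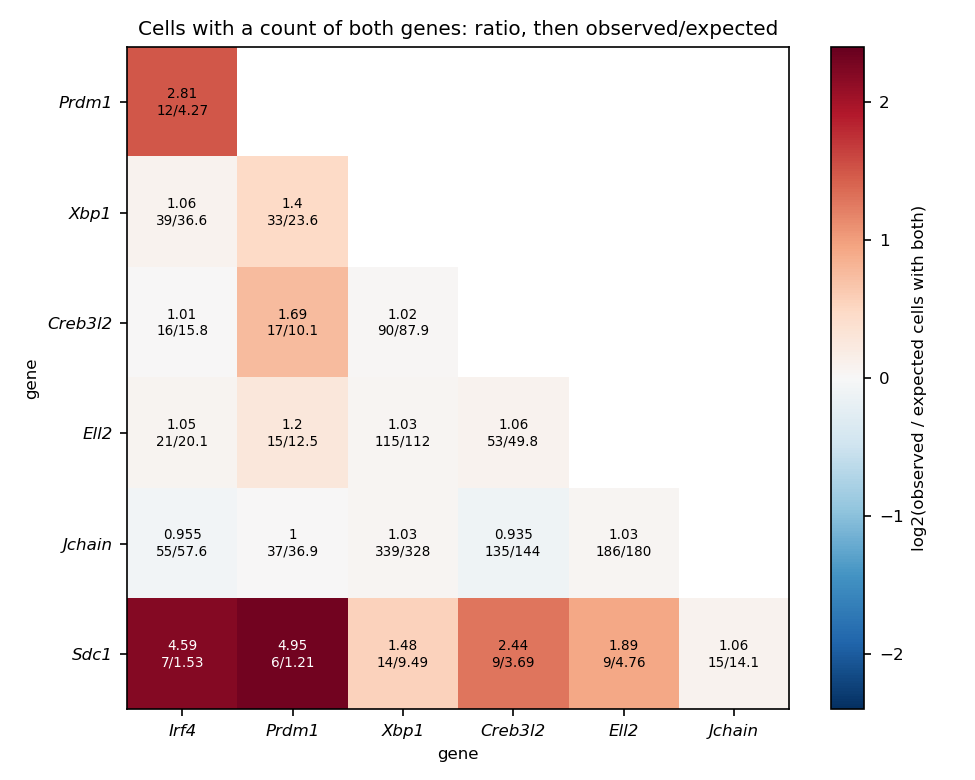
Ratio of the cells with a count of both genes to the number expected if the 2 genes were independent within each host, for the 21 pairs that leave out *Mzb1*; each square gives the ratio and, below it, observed and expected cells, and color is log2 of the ratio. The highest ratios were those of *Sdc1* with *Prdm1* (4.95) and with *Irf4* (4.59).

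Across all 637 cells, counts of 2 genes in 1 cell were compared with the number expected within each host. *Irf4* and *Prdm1* met in 12 cells against 4.27 expected, a ratio of 2.81, with more than expected in 5 of 8 hosts and fewer in 3 (exact two-sided sign-flip p = 0.063). *Irf4* and *Sdc1* met in 7 cells against 1.53 (exact p = 0.13), and *Prdm1* and *Sdc1* in 6 against 1.21 (exact p = 0.13), each above expectation in 4 hosts and below in 1. None of these passed 0.05. *Sdc1* had counts in 5 hosts, so that 0.063 was the smallest p its pairs could give. Of the genes found in 5% to 95% of cells, a range that leaves out *Sdc1*, 5.87% passed in their excess with *Irf4*. The median ratio of *Irf4* with these 13589 genes was 1.08, with a 95th percentile of 1.65, and that of *Prdm1* was 1.11 with a 95th percentile of 1.87.

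*Prdm1* and *Xbp1* met in 33 of the 40 *Prdm1*-positive cells, against 23.6 expected (ratio 1.40), with an excess in 7 of 8 hosts (exact p = 0.016). After thinning the excess was seen in 6 of 8 hosts (exact p = 0.16), and at 10 counts or more the exact p was 0.13. Of all genes, 3.26% exceeded expectation with *Prdm1* at an exact p below 0.05, and after adjustment over them the p for *Xbp1* was 0.62. *Xbp1* and *Jchain* met in 339 cells against 328 (ratio 1.03), in excess in 7 of 8 hosts (exact p = 0.016), where 14.3% of genes did so with *Xbp1*. The adjusted p was 0.24, the exact p after thinning was 0.10, and the median ratio of *Xbp1* with all 13589 genes was 1.04. *Creb3l2* and *Jchain* met in fewer cells than expected, 135 against 144, in 6 of 8 hosts (exact p = 0.047). At 10 counts or more they met in 33 against 34.1 (exact p = 0.76). After thinning the exact p was 0.063, and with the expectation taken within cycling state it was 0.070. No share over all genes was computed for deficits. *Irf4* met *Xbp1* in 39 cells against 36.6 expected and *Ell2* in 21 against 20.1 (exact p = 0.54 and 0.75).

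Pairs were also counted with 10 counts or more required of both genes, and the difference between the 2 limits was not tested. *Creb3l2* met *Prdm1* in 8 cells against 1.28 expected (exact p = 0.063), *Sdc1* in 7 against 0.926 (exact p = 0.13) and *Irf4* in 9 against 3.99 (exact p = 0.063). It met *Xbp1* in 28 against 21.3 (exact sign-flip p = 0.047), and at 1 count or more in 90 against 87.9 (exact p = 0.80). *Xbp1* met *Jchain* in 316 against 302, in excess in 8 of 8 hosts (exact sign-flip p = 0.0078). No other pair passed 0.05 at the higher limit, and no share over all genes was computed there. At 1 count or more the ratio of *Creb3l2* was 1.01 with *Irf4*, 1.69 with *Prdm1* and 2.44 with *Sdc1* (exact p = 0.91, 0.16 and 0.13). Cells with only a single count of *Creb3l2*, 95 of its 159, are left out by the higher limit. In all, 28 pairs were computed at each setting.

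As a description over 637 cells that share host, plate and depth, the gene most like *Irf4* in log2(CPM + 1), centered within hosts, was *Batf* (r = 0.31), a partner of IRF4 on DNA, followed by *Casp4* (0.30) and *Bcl2l1* (0.27), of 10617 genes in at least 10% of cells. *Prdm1* was most like *Rbm47* (0.37), *Sub1* (0.34) and *Gne* (0.30), and *Sdc1* most like *Ddx58* (0.35), *Creb3l2* (0.33) and *Sub1* (0.33). *Xbp1* was most like *Rpn1* (0.22), *Psmb4* (0.22) and *Calr* (0.21), the first and last of which encode proteins of the endoplasmic reticulum. *Creb3l2* was most like *Entpd1*, *Aff1* and *Tpst2* (0.29 each), *Jchain* like *Ywhaz* (0.32), *Cd24a* (0.31) and *Hmces* (0.31), and *Ell2* like *Cd47* (0.18), *Ccne1* (0.17) and *Lbr* (0.16). *Mzb1*, with 2 counts, gives no ranking that can be read.

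Cell cycle phase was called with Seurat, giving 248 cells in G1, 241 in S and 148 in G2M, and cells in S or G2M are called cycling here. *Jchain* was found in 95.6% of 389 cycling and 84.3% of 248 non-cycling cells. The shares in cycling against non-cycling cells were 91.3% and 90.9% in A7, 92.1% and 76.5% in A8, 96.9% and 90.0% in A10, 96.1% and 91.9% in A11, and 96.2% and 82.8% in A12. They were 100% and 79.2% in V5, 100% and 96.0% in V7, and 93.3% and 77.5% in V9. The share was thus higher in cycling cells in 8 of 8 hosts, by 10.2 ± 7.23 percentage points (SD, n = 8, exact sign-flip p = 0.0078, the smallest possible). Of 13590 genes, 30.0% were found in more cycling cells at an exact p below 0.05, and the p of *Jchain* adjusted over them was 0.053. The median total was 869386 counts in cycling and 687083 in non-cycling cells, and after thinning the shares were 95.7% and 86.9%.

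The level of *Jchain* was compared in sums per host and in means over cells. Summed per host and state with host as a block, it was 0.19 ± 0.08 higher in cycling cells on the log2 scale (SE, adjusted p = 0.28 in edgeR), where 3.67% of 12647 genes were called and the median of all genes was 0.14. The mean over cells of log2(CPM + 1), in which each cell weighs the same, was 1.23 ± 0.21 higher (adjusted p = 0.00040, limma), and 19.8% of genes were called higher by that measure. A cell without a count enters that mean as 0. The difference in share of cells given above therefore moves it too, and share and level were not separated. None of the 6 genes of the program tested in edgeR was called, and *Sdc1* and *Mzb1* did not pass the filter on low counts.

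**Figure D4:**
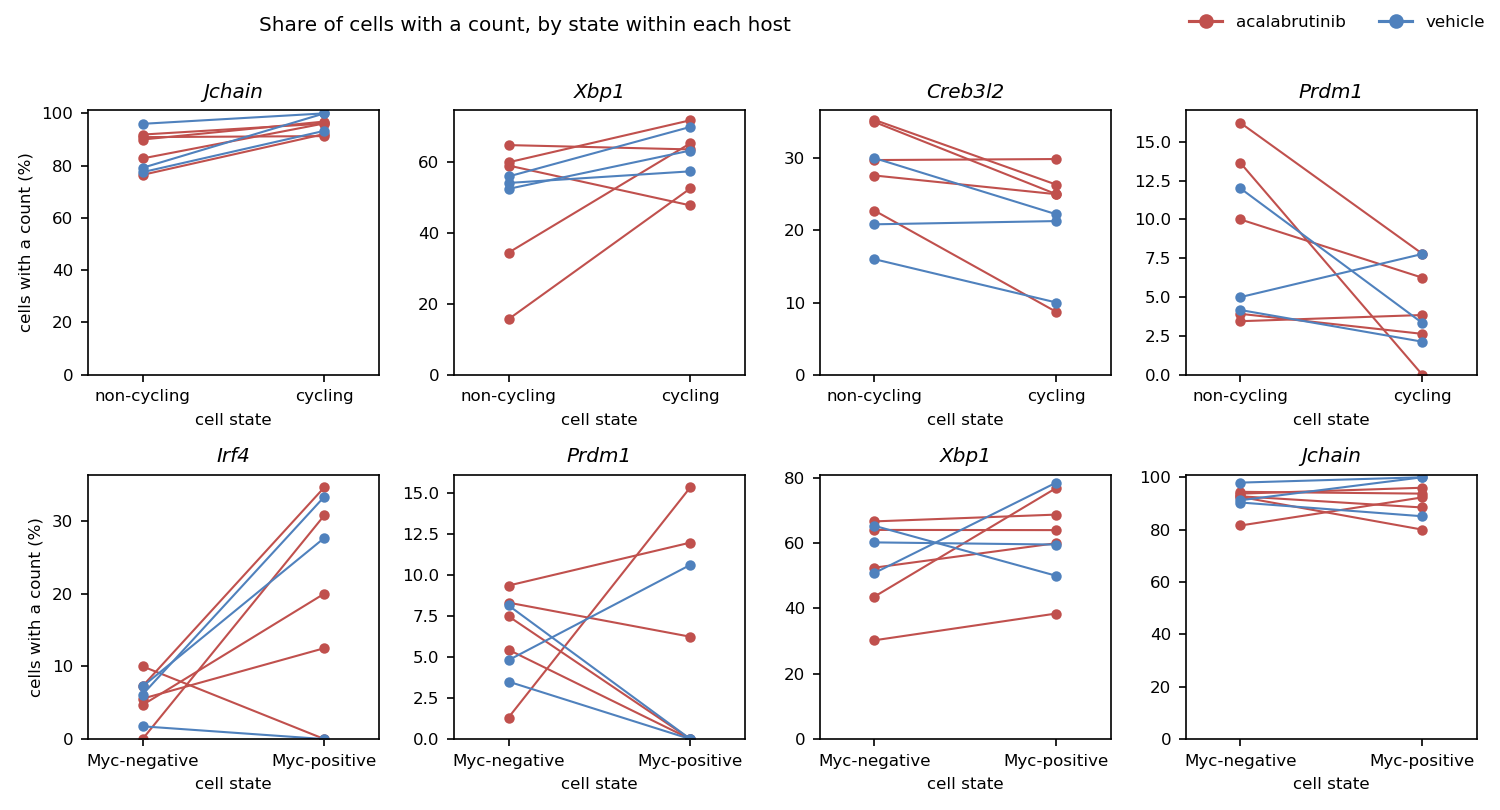
Percentage of cells with a count (y axis) in non-cycling and cycling cells (top row) and in *Myc*-negative and *Myc*-positive cells (bottom row); each line joins the 2 states of 1 host, red for acalabrutinib and blue for vehicle. *Jchain* was higher in cycling cells in 8 of 8 hosts and *Irf4* higher in *Myc*-positive cells in 6 of 8.

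The other genes leaned both ways with the cell cycle. *Xbp1* was found in 62.2% of cycling and 46.4% of non-cycling cells, higher in 6 of 8 hosts (exact p = 0.070), with the widest gap in A8 (52.6% and 15.7%). *Ell2* was at 35.7% and 23.4%, higher in 6 of 8 hosts (exact p = 0.063). *Creb3l2* was at 22.9% and 28.2%, lower in 6 of 8 hosts (exact p = 0.031), where 1.43% of genes were lower in cycling cells, and its p adjusted over all genes was 0.11. For both *Ell2* and *Creb3l2* the level in host sums went the other way. In edgeR it was -0.30 ± 0.31 for *Ell2* and 1.06 ± 0.91 for *Creb3l2* on the log2 scale (SE, adjusted p = 0.79 and 0.73). *Prdm1* was at 5.14% of cycling and 8.06% of non-cycling cells, lower in 6 of 8 hosts (exact p = 0.063). After thinning its shares lay closer, at 5.11% and 5.88%. *Irf4* was at 10.8% and 8.47% (exact p = 0.23). By phase, *Irf4* was found in 8.47% of G1, 9.13% of S and 13.5% of G2M cells, with 95% intervals that overlap. Of the 18 B cell and GC identity genes tested, 5 fell in cycling cells in edgeR (*Foxp1*, *Fcer2a*, *Ebf1* and *Pax5* by 1.02, 0.88, 0.56 and 0.49 on the log2 scale, and *Bach2*), where 1.16% of all genes were called lower, and of 22 secretory genes tested none was called. The medians of the lists were -0.364 and -0.067, beside 0.137 over all genes.

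*Irf4* was found mostly with *Myc*, a gene induced in GC B cells by positive selection. It had a count in 40 of 177 *Myc*-positive cells (22.6%; exact 95% interval 16.7% to 29.5%) and in 23 of 460 *Myc*-negative cells (5.00%; 3.20% to 7.41%). In *Myc*-positive against *Myc*-negative cells the share was 0% and 10% in A7, 30.8% and 0% in A8, 12.5% and 5.56% in A10, 20.0% and 4.69% in A11, and 34.6% and 7.27% in A12. It was 0% and 1.75% in V5, 33.3% and 6.12% in V7, and 27.7% and 7.23% in V9. It was higher in 6 hosts, and in the 2 others no *Myc*-positive cell had *Irf4*, among 5 cells in A7 and 14 in V5.

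The mean difference in share was 14.5 ± 14.9 percentage points (SD, n = 8, exact sign-flip p = 0.047). Of 13589 genes, 14.0% were found in more *Myc*-positive cells at an exact p below 0.05, and the p of *Irf4* adjusted over them was 0.30. *Myc*-positive cells had a median of 890495 counts against 751578, and after thinning *Irf4* was found in 39 of 167 and 18 of 406 cells. The pooled level was 88.2 CPM against 17.0 CPM. On sums per host edgeR gave a log2 difference of 1.69 ± 1.81 (adjusted p = 0.83), where 0.0551% of 12715 genes were called and the median of all genes was -0.42. After thinning the value was 3.23 ± 1.17 (adjusted p = 0.55), over 7 hosts, so depth and the set of hosts both changed. On leaving out single hosts it was 1.03 without A8, 2.28 without V5 and 2.29 without A7. On cell means limma gave 1.07 ± 0.31 (adjusted p = 0.10).

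For the other 7 genes the exact p over hosts ran from 0.23 to 0.97. *Xbp1* was found in 63.8% of *Myc*-positive and 53.0% of *Myc*-negative cells, higher in 5 of 8 hosts (exact p = 0.23), *Jchain* in 91.5% and 91.1%, *Creb3l2* in 25.4% and 24.8%, and *Ell2* in 29.9% and 31.3%. *Sdc1* was found in 7 of 177 and 8 of 460 cells (exact p = 0.25). *Prdm1* was found in 14 of 177 *Myc*-positive cells (7.91%) and 26 of 460 *Myc*-negative cells (5.65%), higher in 3 hosts and lower in 5 (exact p = 0.88). Its pooled level went the other way, at 18.1 CPM against 28.4 CPM. In 4 hosts no *Myc*-positive cell had *Prdm1*. The fitted log2 values were -5.82 in edgeR (adjusted p = 0.68) and -4.94 in DESeq2 (adjusted p = 0.011, 1 of 1195 genes called, 9.40%). Without host as a block the edgeR value was -2.06. On leaving out single hosts it ran from -7.44 to -3.81 where *Prdm1* passed the filter on low counts. The cause of these shifts was not tested. In edgeR 0 of 21 secretory genes and 0 of 19 identity genes tested were called, with medians of 0.045 and -0.368 beside -0.422 over all genes.

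*Irf4*-positive cells were compared with *Irf4*-negative cells in the 4 hosts with at least 5 of them, A11, A12, V7 and V9. *Prdm1* was found in 12 of all 63 *Irf4*-positive cells (19.0%) and in 28 of 574 others (4.88%), higher in 3 of the 4 hosts. *Sdc1* was found in 7 (11.1%) and 8 (1.39%), higher in 3 of 4 hosts and lower in none. The exact p was 0.25 for each gene. For *Prdm1* 4 hosts allow 0.125 at the least, while *Sdc1* had no count in A12, so that 0.25 was the smallest p it could give. In edgeR *Sdc1* was 4.41 ± 1.68 and *Prdm1* 2.58 ± 2.61 higher on the log2 scale, with an adjusted p of 0.65 and 0.85, and the median of all 13731 genes was -0.63. On leaving out single hosts, *Prdm1* was at 3.51 without A11, 3.99 without A12, 1.04 without V7 and 1.01 without V9, and *Sdc1* at 5.34 without A11 and 3.13 without V9, on the same log2 scale. No gene was called (0.0%), *Irf4* itself, which set the groups, included (adjusted p = 0.53), while 1048 genes had an unadjusted p below 0.05. DESeq2 called 1445 genes (10.5%), *Sdc1* among them (log2 difference 4.44, adjusted p = 0.0057), and limma on cell means called 2. *Jchain* was found in 87.3% of *Irf4*-positive and 91.6% of *Irf4*-negative cells, and *Creb3l2* in 25.4% and 24.9%. The pooled level of *Creb3l2* was 122 CPM against 15.6 CPM, and few cells carried it. In A11, 2 *Irf4*-positive cells held 2323 and 1296 of the 3621 counts, and 1 in A10 held 1466. In edgeR *Creb3l2* was 1.225 ± 1.085 higher on the log2 scale (SE, adjusted p = 0.83), and 0.374 to 2.06 on leaving out single hosts. Of 24 secretory genes tested 19 had a positive log2 difference (median 0.54), and of 19 identity genes 5 did (median -0.707), with none called in either list. Of all 13731 genes, 3996 had a positive log2 difference, so the identity genes stood close to the rest.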

How the data were processed

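Counts of 56691 genes in 637 cells were used as deposited. These counts were made by the authors, who ran STARsolo 2.7.10a on the SMART-seq2 reads against GRCm39 (release 107). Exonic and intronic reads were included, with duplicates removed by exact position and no normalization. Of 685 read files, 48 have no cell in the matrix. Cell names and gene symbols were also deposited. The host was the replicate, taken from the cell names through the sample titles, and p-values measure the spread between hosts. The members and gene lists were chosen with earlier results of these data known.

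Counts were summed per host, or per host and state where both states had at least 5 cells, and compared in edgeR 4.0.16 (TMM, filterByExpr, quasi-likelihood, Benjamini-Hochberg adjustment over all genes tested, threshold 0.05), with host as a block for states, since both states of a host come from 1 animal. Alternatives were DESeq2 1.42.0, RLE scaling, no filter, cells thinned to 459128 counts (64 shallower cells left out), other state definitions, no block, leaving out each host and, added after the data were seen, limma 3.58.1 on cell means of log2(CPM + 1). The edgeR step was tested on simulated data. Phases came from Seurat 5.3.0 in R 4.3.3. Shares were compared by exact two-sided sign-flip or permutation tests in Python with NumPy and SciPy. *Prdm1*-positive cells were not compared by a test, since only 2 hosts had 5 or more. Genes named are the 8, the 3 most alike to each, state definers and listed genes past the threshold, at most 4 in each direction by size, others being marked as named after their values were seen. Exonic lengths are from GENCODE M21. A listed gene is not reported here and was left out of the counts.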

Additional observations from a re-analysis of the deposited data

Results flagged for a closer look

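In each group of 5 acalabrutinib hosts, 16 values (share of cells and CPM of 8 genes) were examined for a host standing apart by the ratio of its gap to the range, with a limit of 0.71. Both values beyond it were those of *Mzb1* in host A7, where 2.22% of cells had a count (0.0373 CPM) and the other 4 hosts had none. This is 1 count in 1 cell. Chance alone flags about 1 group in 20. The 3 vehicle hosts were too few to examine.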

How the results depend on the processing

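Of the 143 other recomputed shares and levels, each stayed within the standard deviation between hosts, and *Creb3l2* moved to 18.0% of cells after thinning. The number of pairs found together in more cells than expected ran from 17 to 20 on leaving out single hosts. That number was not compared with pairs of other genes. The median ratio over all genes ran from 1.01 with *Jchain* to 1.11 with *Sdc1*, and was 0.872 with *Mzb1*. Counts of called genes depended on the test. With DESeq2 they were 105 for the drug, 2052 for cycling, 1195 for *Myc* and 1445 for *Irf4*, and with limma on cell means 0, 2612, 237 and 2. Without the filter on low counts they were 252 for cycling and 1 for *Myc*. Cycling defined by *Mki67* and *Top2a* gave 269. Thinned cells gave 363 for cycling and 2 for *Myc* (7 hosts), and a limit of 10 *Myc* counts gave 3 (7 hosts). Without host as a block, *Myc* gave 23, cycling 417 and *Irf4* 1, which was *Irf4* itself, the gene that set the groups (adjusted p = 0.0022 in edgeR), and no other call of the 8 genes changed. Leaving out each host in turn gave 295 to 360 for cycling (309 without A8, 305 without V7, 295 without V9), 0 to 7 for *Myc* (0 without A8, A10, A11, V5, V7 or V9, and 4 without A12) and 0 for the drug and for *Irf4*. The cause was not tested.

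No difference of the 8 genes had passed in edgeR, so directions could turn there only among differences that had not passed. The pairs past 0.05 at 1 count or more kept their direction in each setting. For the drug, *Irf4* was 0.027 on cell means. In cycling cells *Xbp1* was -0.0243 with RLE scaling, -0.0243 with DESeq2 and -0.0592 without the block, *Creb3l2* -0.12 and *Ell2* 0.36 on cell means. In *Myc*-positive cells *Xbp1* was -0.0215 without the filter, and in *Irf4*-positive cells *Jchain* was -0.0452 without the filter and -0.32 on cell means. The ratio of *Irf4* with *Creb3l2* was 0.98 after thinning, and that of *Xbp1* with *Ell2* was 1.0 with the expectation taken within cycling state. On leaving out single hosts, log2 differences ran as follows. For the drug, *Irf4* ran from -0.58 to 0.47, *Prdm1* from -1.41 to 1.15, *Xbp1* from -0.12 to 0.12 and *Sdc1* from -2.19 to 0.18. For cycling, *Irf4* ran from -0.34 to 0.74 and *Xbp1* from -0.11 to 0.21. For *Myc*, *Xbp1* ran from -0.0600 to 0.17 and *Sdc1* from -1.11 to 1.27. For *Irf4*, *Jchain* ran from -0.11 to 0.20 and *Ell2* from -0.93 to 0.0782. The ratios of *Irf4* ran from 0.928 to 1.01 with *Jchain*, 0.956 to 1.08 with *Creb3l2* and 0.968 to 1.11 with *Ell2*, that of *Prdm1* with *Jchain* from 0.981 to 1.04, and that of *Xbp1* with *Creb3l2* from 0.960 to 1.06. The excess of *Prdm1* with *Xbp1* no longer passed 0.05 after thinning (exact sign-flip p = 0.16) or at 10 counts (exact sign-flip p = 0.13). That of *Xbp1* with *Jchain* did not after thinning (exact sign-flip p = 0.10). The deficit of *Creb3l2* with *Jchain* did not after thinning (exact sign-flip p = 0.063) or at 10 counts (exact sign-flip p = 0.76). Nor did it with the expectation taken within cycling state (exact sign-flip p = 0.070).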
